A study of Mus musculus with 6 samples.

Results

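Integrins and laminins were followed as 1 set of genes: every protein-coding row of the count table whose symbol names an integrin alpha or beta subunit, a laminin alpha, beta or gamma chain, nidogen 1 or 2, or fibronectin. The rule reads symbols only. The rule found 39 of the 23842 genes in the table: 17 integrin alpha subunits, 8 integrin beta subunits, 5 laminin alpha, 3 laminin beta and 3 laminin gamma chains, Nid1, Nid2 and Fn1. Of these 39, 31 had enough counts to be tested and 8 did not. RNA came from mouse embryonic fibroblasts, adherent mesenchymal cells grown out of embryos, of the strain C57BL/6, in high-glucose medium with serum and with no treatment. The genotype was given as NGLY1-/- for 3 libraries and as wild type for the other 3, and the comparison asks what changes when the cytosolic enzyme that strips N-linked glycans from discarded glycoproteins is missing. The labels give neither the allele nor whether the libraries of a group are separate cultures or animals, and each p-value rests on the scatter among these libraries, which may be technical only.

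Integrins are cell-surface receptors made of 1 alpha and 1 beta subunit, and the pairing sets which matrix protein is bound. Most alpha subunits pair with the product of Itgb1, while the product of Itgav also pairs with those of Itgb3, Itgb5, Itgb6 and Itgb8. Laminins are cross-shaped trimers of 1 alpha, 1 beta and 1 gamma chain that form the cell-facing sheet of basement membranes, nidogens tie that sheet to collagen IV, and fibronectin is the main fibrillar integrin ligand of cultured fibroblasts. Integrin subunits, laminin chains and fibronectin all carry N-linked glycans.

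Libraries held 27323577 to 37841558 counts. Levels are in CPM, gene counts over a common library size, with that size adjusted by TMM scaling, and triplets of values follow replicates 1, 2 and 3. Ngly1 counts were 668, 632 and 307 for wild type and 618, 420 and 457 for the knockout-labelled cells (adjusted p = 0.99), so a count over the whole gene does not check the genotype and each direction rests on the labels. Of 15039 genes tested with edgeR's quasi-likelihood test, 9160 (60.9%) passed a false discovery rate of 5%, 30.7% in the direction of higher knockout-labelled levels and 30.2% in the other, and for 67.3% the groups were separate, with no overlap. Scaled by library totals only, 3911 genes were higher and 5318 lower. A call is therefore common in these data, and the size of a change says more than the call. Of 10 fibroblast markers 9 could be tested, 1 higher and 6 lower, with a summed level of 6119 to 6880 CPM in the wild-type libraries and 3763 to 4313 CPM in the others. Col1a1, a chain of collagen I, stood at 1183 and 1118 CPM on average and did not pass. S100a4 was 7.59-fold, Thy1 3.11-fold and Vim 2.57-fold lower, Dcn was 4.60-fold higher, and Lum, a small proteoglycan gene, had 2 and 1 counts per group. In bulk RNA, fewer cells of a type and less RNA per cell cannot be told apart.

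Among the 31 tested members, 21 (67.7%, against 60.9% of all tested genes) passed the threshold, 7 up and 14 down in knockout-labelled cells. Of the 31 tested members, 16 both passed and changed at least 2-fold, 5 higher and 11 lower, against 28.5% of all tested genes. The groups did not overlap for 20 of the 31 members (64.5%, against 67.3% of all tested genes). The median log2 fold change was -0.26 over the members and -0.040 over all tested genes. Placing Itga2, which had 0 wild-type counts, at its floor ratio could not change the former, because it stays the highest value. Integrins and laminins differed in balance by count. Of 18 tested integrins, 1 was higher and 10 lower (61.1% called). Of 10 tested laminin chains, 4 were higher and 4 lower (80.0% called). Over all tested genes 60.9% were called, 30.7% higher and 30.2% lower. These counts were not tested against each other. Among the 14 other ways of processing, 18 of the 21 called members passed with the same sign in every one in which they were tested. The exceptions were Itgb1, Lamb2 and Lama3.

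**Figure D1:**
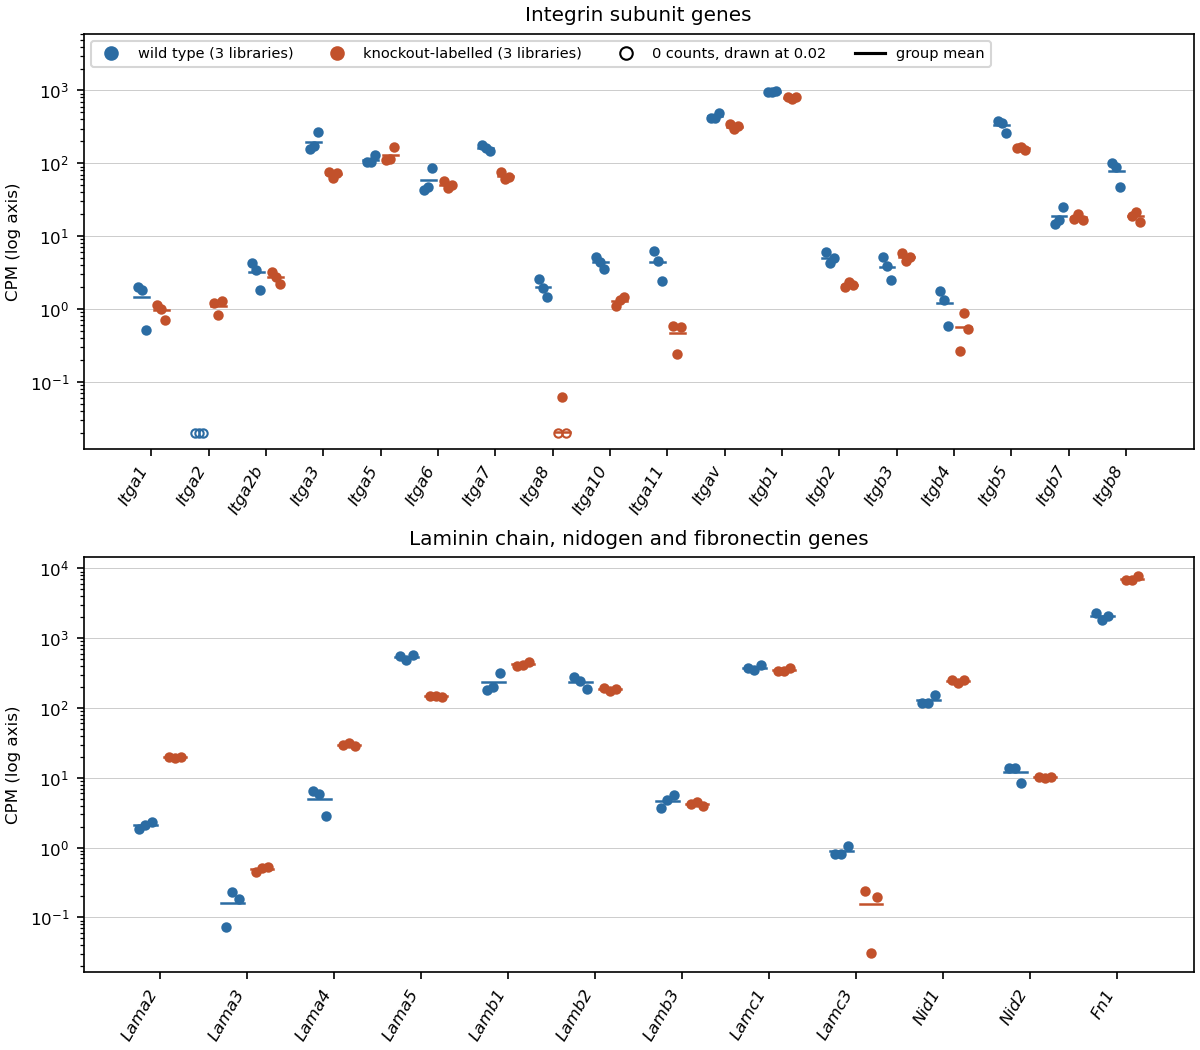
Level of 30 of the 31 tested members in CPM (log axis) in the 3 wild-type and the 3 knockout-labelled libraries, with group means as lines and libraries of 0 counts as open circles at 0.02. Fn1 and Lama5 move in opposite directions with no overlap, Itga2 has 0 counts in all 3 wild-type libraries, and Itgb1 is the highest integrin subunit in both groups.

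For 4 called members, of which 2 rose and 2 fell, the 250 bases before the RefSeq start (GRCm38.p6) are shown as the sequence context of genes described below. The windows used here covered 24 of the 39 members, 27 windows in all. Of these, 13 lay wholly before the gene's outermost start, as these 4 do. Each is written 5′ to 3′ on the gene's strand, with matches to the motifs searched in capitals.
Itga2 (chr13:114932101-114932350, minus strand): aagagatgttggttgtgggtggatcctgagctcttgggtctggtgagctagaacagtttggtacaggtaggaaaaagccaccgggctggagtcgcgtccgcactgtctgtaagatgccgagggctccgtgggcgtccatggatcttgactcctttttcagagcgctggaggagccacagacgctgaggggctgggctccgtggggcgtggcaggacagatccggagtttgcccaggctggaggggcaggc
Nid1 (chr13:13437352-13437601, plus strand): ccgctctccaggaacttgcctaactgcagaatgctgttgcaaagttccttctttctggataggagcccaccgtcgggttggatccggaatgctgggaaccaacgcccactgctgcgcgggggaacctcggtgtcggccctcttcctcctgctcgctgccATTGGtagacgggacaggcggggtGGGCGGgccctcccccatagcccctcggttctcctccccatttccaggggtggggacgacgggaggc
Itga11 (chr9:62677605-62677854, plus strand): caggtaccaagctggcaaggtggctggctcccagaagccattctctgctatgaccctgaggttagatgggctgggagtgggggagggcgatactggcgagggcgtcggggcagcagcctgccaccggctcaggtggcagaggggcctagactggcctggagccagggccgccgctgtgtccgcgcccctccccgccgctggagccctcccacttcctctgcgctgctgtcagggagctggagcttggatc
Itgb8 (chr12:119238277-119238526, minus strand): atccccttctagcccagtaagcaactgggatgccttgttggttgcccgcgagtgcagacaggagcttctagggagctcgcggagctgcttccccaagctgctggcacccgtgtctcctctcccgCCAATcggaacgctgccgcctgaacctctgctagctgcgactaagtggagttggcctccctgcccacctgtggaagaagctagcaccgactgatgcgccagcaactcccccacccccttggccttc
The capitals mark, in Nid1, a GC box (GGGCGG) from -67 and the reverse complement of CCAAT from -91, and in Itgb8 a CCAAT from -126, counted back from the start. Itga11 had 0 matches, and Itga2 had 1 GC box after the start, outside the bases shown. On the full 300-base windows, searched on both strands, 13 of the members' 27 windows held a GC box, against 60.7% of the windows of tested genes and 35.7% of all 32851 windows. The antioxidant response core TGACNNNGC, the element read by the factor that the NGLY1 substrate gene Nfe2l1 encodes, was in 4 of 27 (Itgb1, Itgb6, Itga9 and Itgax), against 14.0% and 12.4%. An AP-1 site (TGANTCA) was in 3, against 5.4% and 7.8%, CCAAT in 5, against 38.2% and 37.4%, and TATAAA in 0, against 7.6% and 13.6%. Of these motifs none contains another, although matches can share bases. The windows also differed in CpG content: the observed over expected ratio was 0.465 for Itga11, 0.488 for Itgb8, 0.519 for Itga2 and 0.640 for Nid1, with a median of 0.741 over windows of tested genes. These matches describe letters and not bound sites.

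All 4 laminin alpha chains that could be tested passed, 3 higher and 1 lower, where 60.9% of all tested genes passed. Lama5 (gene ID 16776; chromosome 2, 180176373 to 180225904 in GRCm38) encodes the alpha chain of the most widespread adult laminins and was the main alpha chain of wild-type cells, with 559, 492 and 578 CPM in the wild-type libraries and 148, 147 and 144 CPM in the knockout-labelled ones. The groups lay far apart and the spread within each was small, and the decrease was 3.71-fold (log2 fold change -1.89 ± 0.10 (SE), adjusted p = 2.40e-07). Lama4 (chromosome 10, 38965515 to 39110188), whose product is typical of vessel and mesenchymal basement membranes, had 6.39, 5.91 and 2.85 CPM in the wild-type libraries and 29.4, 31.7 and 28.4 CPM in the knockout-labelled ones. All 3 knockout-labelled libraries were above all wild-type ones, a rise of 5.83-fold (adjusted p = 3.01e-05). Endothelial markers summed to 6.22 to 8.48 CPM in the wild-type libraries and 7.08 to 8.99 CPM in the others. Of 9 such genes 6 were analysed and 3 tested, with Kdr higher, while Pecam1 had 27 and 2 counts per group and Cdh5 17 and 6, and their part in the change of Lama4 was not tested. Lama2 (chromosome 10, 26981285 to 27617191), the alpha chain of muscle and nerve basement membranes, had 1.82, 2.11 and 2.31 CPM in the wild-type libraries and 19.6, 19.4 and 20.04 CPM in the knockout-labelled ones. Its rise was 9.50-fold (log2 fold change 3.25 ± 0.14 (SE), adjusted p = 1.28e-07), and the libraries of each group differed little. Skeletal muscle markers summed to 0.822 to 1.61 CPM in the wild-type libraries and 4.003 to 4.30 CPM in the others, with a rise of Des, the desmin gene (7.47-fold, adjusted p = 0.000536). Of that list 4 of 8 genes were analysed and 2 tested. The 3 besides Des did not pass or were too low to be tested: Acta1 had 71 wild-type and 54 knockout-labelled counts, Tnnt3 15 and 1, and Myh3 1 and 7. The part of such cells in the change was not tested. Lama3 (chromosome 18, 12333417 to 12583013), an alpha chain of epithelial laminin, stayed scarce, with wild-type counts of 3, 9 and 5 and knockout-labelled counts of 15, 17 and 19. Its 3.06-fold rise (adjusted p = 0.0165) was lost when wild-type replicate 1 (adjusted p = 0.072), knockout replicate 2 (0.0531) or knockout replicate 3 (0.0533) was left out. Epithelial markers other than laminin chains summed to 1.90 to 2.65 CPM in the wild-type libraries and 1.28 to 2.45 CPM in the others. Of 9 such genes 7 were analysed and 4 tested, 1 higher (Grhl2) and 2 lower (Cdh1 and Krt8), and their part in the change of Lama3 was not tested. Lama1, the embryonic alpha chain, had 0 counts over the wild-type group and 2 over the other, all in knockout replicate 2, and was not tested.

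Laminin beta chains moved less and less evenly. Lamb1 (chromosome 12, 31265146 to 31329644), the beta chain of early and widespread laminins, had 181, 200.2 and 322 CPM in the wild-type libraries and 398, 410.2 and 452 CPM in the knockout-labelled ones. The groups did not overlap, but wild-type replicate 3 stood nearer to the knockout-labelled libraries than to the other two of its group. The rise was 1.79-fold (log2 fold change 0.84 ± 0.20 (SE), adjusted p = 0.00544). Lamb2, the beta chain of synaptic and kidney filter laminins, had 277, 245 and 189.6 CPM in the wild-type libraries and 192, 177 and 185 CPM in the knockout-labelled ones. Here wild-type replicate 3 lay inside the range of the knockout-labelled group, so the groups overlapped. Its 1.28-fold decrease (adjusted p = 0.0366) was lost whenever any single library other than wild-type replicate 3 was left out, where adjusted p ran from 0.0803 to 0.136. Lamb3, the beta chain of epithelial laminin, was at 4.73 ± 1.06 and 4.25 ± 0.312 CPM (SD, n = 3 each) and did not pass (adjusted p = 0.563).

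Lamc1 (chromosome 1, 153218922 to 153332786), the gamma chain of nearly all laminins, had 376, 351 and 409.8 CPM in the wild-type libraries and 339.7, 340.4 and 375 CPM in the knockout-labelled ones. The groups overlapped, and the difference did not pass (adjusted p = 0.358), with an interval of -0.30 to 0.088 on the log2 scale (fitted value ± 2 SE). Lamc3 was near the limit of detection, with wild-type counts of 33, 32 and 29 and knockout-labelled counts of 8, 1 and 7, and was 5.62-fold lower (adjusted p = 0.00252).

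The make-up of the alpha and beta chain pools was computed per length of merged exons. On that scale Lama5 was 97.8% ± 0.705 of alpha-chain signal in wild-type cells and 64.8% ± 0.761 in the knockout-labelled ones (SD, n = 3 each). In turn Lama4 went from 1.74% ± 0.714 to 24.9% ± 1.01, and Lama2 from 0.436% ± 0.0602 to 10.1% ± 0.360. Among beta chains Lamb1 held 38.3%, 43.5% and 61.3% in the wild-type libraries and 66.1%, 68.5% and 69.7% in the others. The ratio of Lamb1 to Lamb2 per kilobase, which no scaling of libraries can move, was 0.629, 0.788 and 1.64 in the former and 2.0, 2.23 and 2.36 in the latter. Summed over the class, alpha chains went from 48.7 ± 3.79 to 19.8 ± 0.345 CPM per kilobase, while beta chains went from 83.2 ± 5.96 to 106 ± 4.77 (SD, n = 3 each). With 3 libraries against 3, an exact permutation test of such a share or sum cannot go below p = 0.1, so these are given as descriptions.

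**Figure D2:**
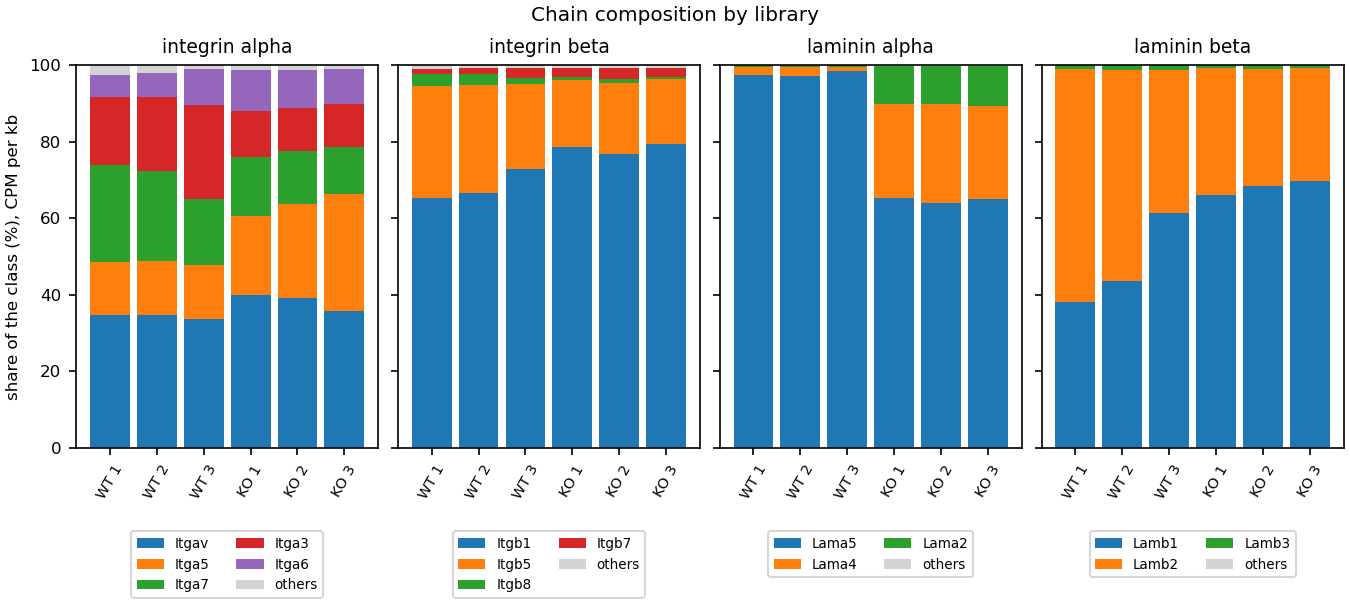
Share of each integrin subunit and laminin alpha or beta chain in its class, in percent of summed CPM per kilobase of merged exons, for the 3 wild-type (WT) and 3 knockout-labelled (KO) libraries. Lama5 fills over 97% of the alpha-chain bar in each wild-type library and between 63.9% and 65.4% in each knockout-labelled library, and wild-type replicate 3 stands between the groups for Lamb1.

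Among the linker genes and fibronectin, Fn1 and Nid1 rose and Nid2 did not pass. Fn1 (gene ID 14268; chromosome 1, 71585473 to 71653280), whose product binds the integrins of Itga5 and Itgav, had the highest level of all members, with 2335, 1845 and 2096 CPM in the wild-type libraries and 6839, 6852 and 7761 CPM in the knockout-labelled ones. The groups were clear of each other, and the rise was 3.42-fold (log2 fold change 1.77 ± 0.13 (SE), adjusted p = 3.30e-06). The ratio of Fn1 to Lamc1 per kilobase was 5.59, 4.72 and 4.60 in the wild-type libraries and 18.1, 18.1 and 18.6 in the others. Nid1, the main nidogen, had 118, 118 and 154 CPM in the wild-type libraries and 256, 232 and 255 CPM in the knockout-labelled ones. That is a rise of 1.90-fold (adjusted p = 0.000103) with no overlap, on a stretch of chromosome 13 where 36 other tested genes within 5 Mb had a median log2 fold change of 0.71, against 0.93 for Nid1 itself. Nid2, its paralogue, had 13.9, 13.6 and 8.30 CPM in the wild-type libraries and 10.3, 9.90 and 10.3 CPM in the knockout-labelled ones. Wild-type replicate 3 was the lowest of all 6 libraries, the groups overlapped, and Nid2 did not pass (adjusted p = 0.305), although it did without that replicate (log2 fold change -0.42, adjusted p = 0.00866). Opposite-strand exons of Rtraf cover 8.96% of Nid2's exons, and since no strand setting is given, some reads there could belong to either gene.

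Of the 17 integrin alpha genes 11 were tested, 1 higher and 6 lower (63.6% called, against 60.9% of all tested genes). Itgav (chromosome 2, 83722303 to 83806917), the alpha subunit of vitronectin receptors, was the most abundant per length, at 62.3 ± 6.07 and 45.02 ± 3.47 CPM per kilobase (wild-type first; SD, n = 3 each). Its levels were 415, 414 and 489 CPM in the wild-type libraries and 341, 292 and 320.4 CPM in the knockout-labelled ones, with no overlap and a 1.38-fold decrease (log2 fold change -0.47 ± 0.11 (SE), adjusted p = 0.00341). Itga5 (chromosome 15, 103344286 to 103366791), the alpha subunit of the classical fibronectin receptor, had 103, 103 and 129 CPM in the wild-type libraries and 109.7, 114 and 169 CPM in the knockout-labelled ones. The groups overlapped and it did not pass (adjusted p = 0.271), with an interval of -0.11 to 0.57 on the log2 scale. Fn1 and the fibronectin receptor gene Itga5 thus differed in their call, but the difference between their changes was not tested. Per kilobase the ratio of Fn1 to Itga5 was 11.7, 9.25 and 8.42 in the wild-type libraries and 32.2, 31.1 and 23.8 in the others.

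The alpha subunits tested that are best known as laminin receptors were Itga3, Itga6 and Itga7. Itga3 (chromosome 11, 95044475 to 95076844), which pairs with Itgb1, had 159, 170.3 and 266 CPM in the wild-type libraries and 76.3, 63.1 and 73.9 CPM in the knockout-labelled ones. Wild-type replicate 3 was the highest, the groups did not overlap, and the decrease was 2.79-fold (log2 fold change -1.48 ± 0.19 (SE), adjusted p = 0.000164). Itga7 (chromosome 10, 128933421 to 128958286), best known from skeletal muscle, had 176, 164 and 146 CPM in the wild-type libraries and 76.05, 60.95 and 65.3 CPM in the knockout-labelled ones, a 2.41-fold decrease with no overlap (log2 fold change -1.27 ± 0.11 (SE), adjusted p = 8.65e-06). Itga6, the partner of both Itgb1 and Itgb4, had 42.4, 46.8 and 85.1 CPM in the wild-type libraries and 56.5, 45.4 and 50.3 CPM in the knockout-labelled ones. Its wild-type range contained the knockout-labelled one, it did not pass (adjusted p = 0.518), and its fitted sign turned without wild-type replicate 3 (log2 fold change 0.20). Among alpha subunits per length, Itga3 went from 20.6% ± 3.50 to 11.5% ± 0.481 and Itga7 from 21.9% ± 4.24 to 13.8% ± 1.38 of the class, while Itga5 went from 14.04% ± 0.175 to 25.2% ± 4.87 (SD, n = 3 each). Summed alpha-subunit signal was 181 ± 21.5 and 118 ± 10.7 CPM per kilobase, so the larger share of Itga5 came with a lower total.

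The collagen-binding alpha subunits Itga1, Itga2, Itga10 and Itga11 differed in direction. Itga2 (gene ID 16398; chromosome 13, 114833081 to 114932100) was the only integrin that rose past the threshold, with wild-type counts of 0, 0 and 0 and knockout-labelled counts of 41, 27 and 45. With the wild-type sum set to a floor of 3 counts it was 39.4-fold higher. The lower bound of its 95% counting interval was 31.5 (adjusted p = 7.18e-05). Its level stayed low, at 1.21, 0.823 and 1.27 CPM. Itga1, the next gene on chromosome 13, had wild-type counts of 82, 71 and 14 and knockout-labelled counts of 39, 33 and 25 and did not pass (adjusted p = 0.268), although it did without wild-type replicate 3 (log2 fold change -0.996, adjusted p = 0.00673). The 36 tested genes within 5 Mb of Itga2 had a median log2 fold change of 0.49. Itga11 (chromosome 9, 62677855 to 62783979), which forms a fibroblast receptor for fibrillar collagen, had 6.29, 4.57 and 2.45 CPM in the wild-type libraries and 0.590, 0.244 and 0.564 CPM in the knockout-labelled ones, a 9.48-fold decrease (adjusted p = 0.00014). Its 95 tested neighbours had a median of -0.45. Itga10, known from cartilage, had 5.14, 4.37 and 3.55 CPM in the wild-type libraries and 1.09, 1.34 and 1.44 CPM in the knockout-labelled ones and was 3.37-fold lower (adjusted p = 0.000178), but 34.5% of its exon bases also belong to the same-strand gene model Gm42957, so its reads may be divided between them.

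Itga8 (chromosome 2, 12106632 to 12301985), a receptor subunit of embryonic mesenchyme and smooth muscle, was close to absent from the knockout-labelled libraries, with wild-type counts of 104, 76 and 40 and knockout-labelled counts of 0, 2 and 0. The summed ratio was 105 with a 95% counting interval of 28.8 to 873 (adjusted p = 2.97e-05). Both counts of the lower group were in knockout replicate 2. Without it the group had 0, and the fitted log2 fold change went from -6.43 to -9.14, which depends on the prior count and is no bound. Itga2b, the alpha subunit of the platelet fibrinogen receptor, was at 3.20 ± 1.26 and 2.73 ± 0.523 CPM (SD, n = 3 each; adjusted p = 0.529), while the 2 of 6 platelet markers analysed summed to under 1 CPM in every library. Of these 2, Ppbp had 70 wild-type and 5 knockout-labelled counts and passed as lower (adjusted p = 0.00142), and Gp6 had 1 and 0. Their part in the level of Itga2b was not tested.

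Of 8 integrin beta genes 7 were tested, 0 higher and 4 lower (57.1% called, against 60.9% of all tested genes). Itgb1 (gene ID 16412; chromosome 8, 128685654 to 128733579), the common partner subunit, had 947, 948 and 967 CPM in the wild-type libraries and 825, 765 and 807 CPM in the knockout-labelled ones. The groups did not overlap, but the change was small, 1.19-fold lower (log2 fold change -0.26 ± 0.09 (SE), adjusted p = 0.0361). That call was lost in 9 of the 14 alternatives, among them each of the 6 that leave out 1 library (adjusted p = 0.0504 to 0.17) and the one with the replicate number as a block (adjusted p = 0.0594). Over all 14 the adjusted p ran from 0.00422 to 0.17. Its share of beta-subunit signal per length went from 68.3% ± 4.01 to 78.2% ± 1.32 (SD, n = 3 each), while Itgb5 and Itgb8 fell by more.

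The Itgav partners fell or did not pass. Itgb5 (chromosome 16, 33829665 to 33949338), which forms a vitronectin receptor, had 374, 358 and 261 CPM in the wild-type libraries and 164, 166 and 154 CPM in the knockout-labelled ones, with no overlap and a 2.05-fold decrease (log2 fold change -1.04 ± 0.13 (SE), adjusted p = 0.000104). It lies on chromosome 16, where 95 tested neighbours had a median log2 fold change of -0.46, so it was -0.58 on the log2 scale relative to them. Itgb8 (chromosome 12, 119162803 to 119238276), whose receptor releases active TGF-beta from its latent complex, had 100.4, 87.9 and 47.9 CPM in the wild-type libraries and 18.6, 21.7 and 15.8 CPM in the knockout-labelled ones. Wild-type replicate 3 was the lowest of its group but still above every knockout-labelled library, and the decrease was 4.22-fold (log2 fold change -2.08 ± 0.25 (SE), adjusted p = 0.000171). Itgb3, another vitronectin receptor subunit, was at 3.80 ± 1.30 and 5.23 ± 0.679 CPM (SD, n = 3 each; adjusted p = 0.159). It passed as higher without wild-type replicate 1 (adjusted p = 0.0377). Itgb6, the epithelial partner, had wild-type counts of 8, 8 and 3 and knockout-labelled counts of 0, 0 and 0 and was too low to be tested. With the knockout-labelled sum set to the floor of 3 counts it was 6.05-fold lower. The lower bound of its 95% counting interval was 4.46.

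Itgb4, which carries the hemidesmosome, had wild-type counts of 72, 51 and 16 and knockout-labelled counts of 9, 29 and 19 and did not pass (adjusted p = 0.079). It passed as lower without wild-type replicate 3 (adjusted p = 0.00355) and without knockout replicate 2 (adjusted p = 0.0447). Its 4 alternatives past the threshold, the 2 others being no low-count filter and both libraries numbered 3 left out, all had the same sign. Among subunits best known from leukocytes, Itgb2 had 6.02, 4.26 and 4.94 CPM in the wild-type libraries and 1.98, 2.35 and 2.14 CPM in the knockout-labelled ones, a 2.35-fold decrease with no overlap (adjusted p = 0.000762). Itgb7 had 14.8, 16.6 and 25.1 CPM in the wild-type libraries and 17.3, 20.2 and 16.5 CPM in the knockout-labelled ones, groups that overlapped and no call (adjusted p = 0.802). Their alpha partners were at or near 0: Itgal had 3 counts over the wild-type group and 2 over the other, Itgam 7 and 3, Itgax 0 and 4, Itga4 6 and 0, and Itgae 23 and 3. For Itgam, 70.0% of the exon bases also belong to the same-strand gene model Gm49368, so its reads may be divided between them. Of 12 leukocyte markers 8 were analysed and summed to 3.51 to 5.33 CPM in the wild-type libraries and 3.07 to 3.29 CPM in the others, with Cd68 the highest. Ptprc, the pan-leukocyte marker, had 3 and 0 counts per group, and Coro1a passed as lower. Itga9 had 1 count in each group.

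**Figure D3:**
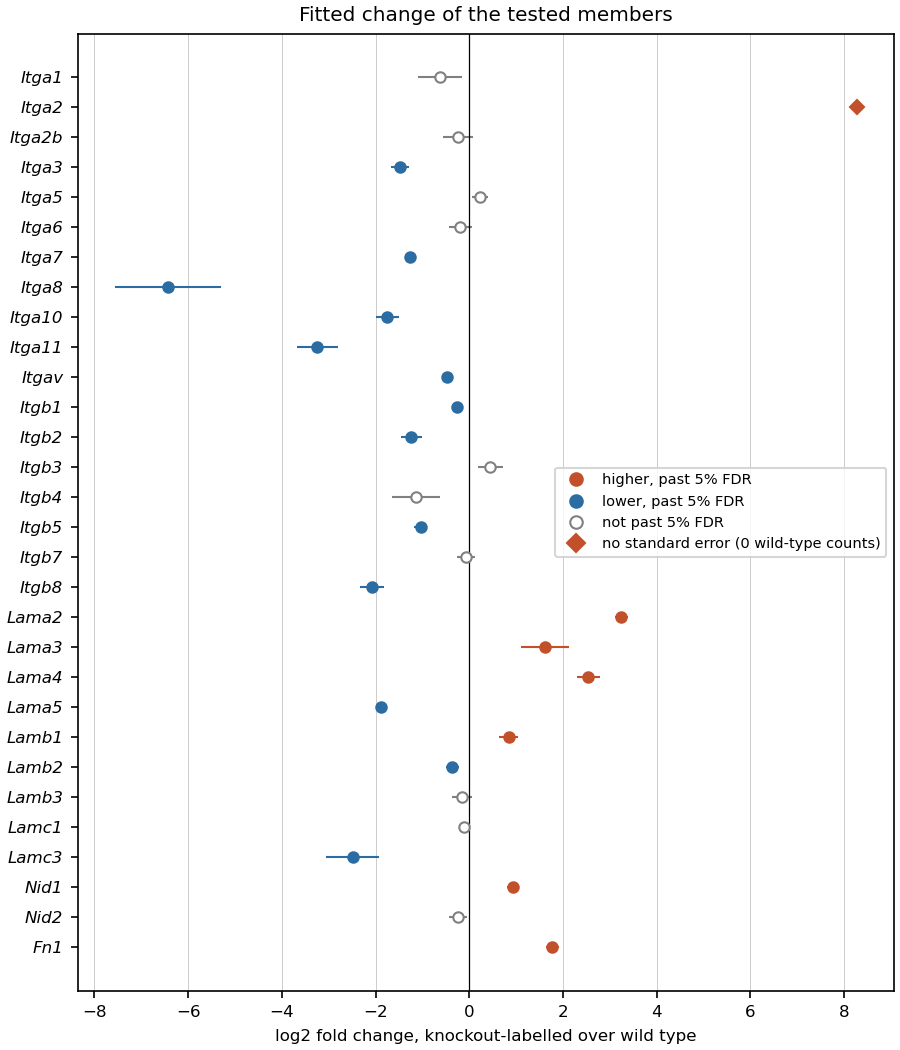
Fitted log2 fold change of 30 of the 31 tested members, knockout-labelled over wild type, with bars of 1 SE and the colour showing which passed a 5% false discovery rate. Itga2 (diamond) has 0 wild-type counts, so its fitted value depends on the prior count and is no bound. Of the 11 integrins that passed, 10 lie left of 0, while laminin chains lie on both sides.

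Wild-type replicate 3 differed from its group more often than any other library did. It was over 1.5 times above or below the mean of the other 2 wild-type libraries for 13 of 31 members (41.9%), against 22.1% of all tested genes. The share was 3.23% to 22.6% of members in the other wild-type libraries and 9.68% to 16.1% in the knockout-labelled ones. The members called at least 2-fold that were affected, such as Itgb8, Itga11 and Lama4, kept their direction and their call without it. Leaving it out gave 23 called members, 7 higher and 16 lower, and so did leaving out both libraries numbered 3.

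Several members lie in stretches of chromosome whose tested genes were shifted as a group. For 10 of the 21 called members the median log2 fold change of the other tested genes of the chromosome, or of those within 5 Mb, was beyond 0.3 in size. The matching share over all tested genes was not computed, so this count is a description and not a trait of the members. For Lama5 the 68 neighbours had a median of 0.86, and for Lama2 and Lama4 the medians were -0.32 and -0.36, each of the opposite sign to the member. Lama3 and its neighbours on chromosome 18 (median 0.50), Nid1, Itga2, Itga11, Itgb5 and Lamb2 (median -0.42) had the same sign as their surroundings. Relative to the neighbours' median 20 of the 21 kept their sign, and 15 were at least 2-fold away, against 16 before. The exception was Lamb2, which stood 0.063 above its neighbours on the log2 scale. The part of position in these changes was not tested.

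**Figure D4:**
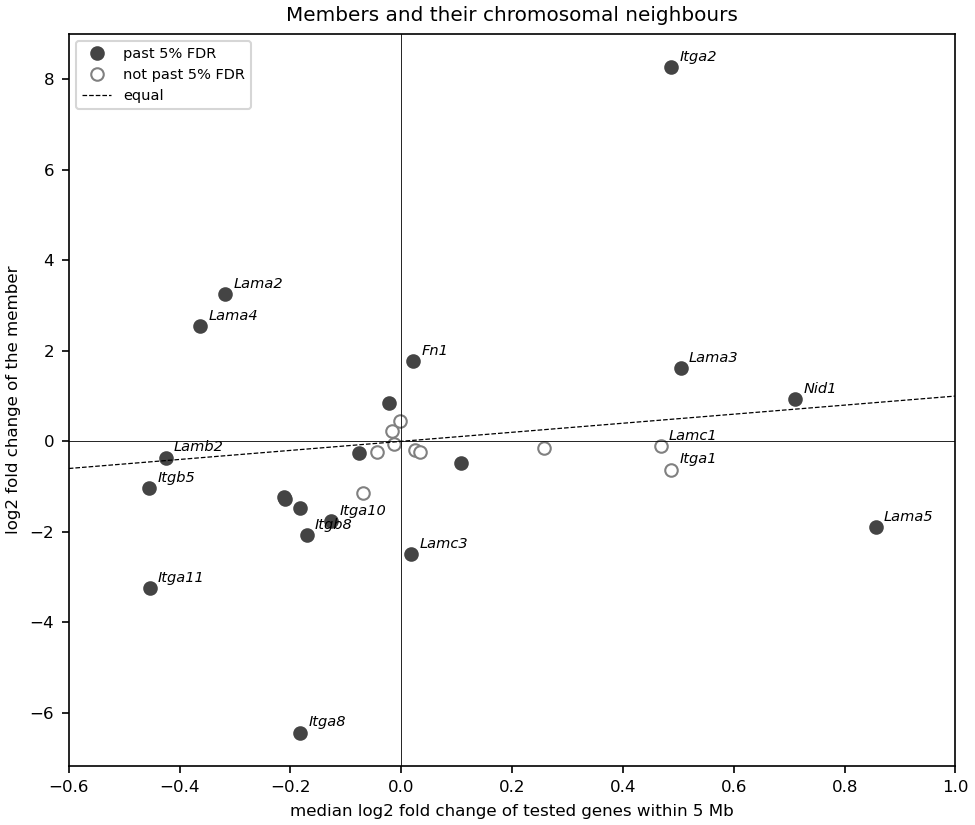
Log2 fold change of 30 of the 31 tested members against the median log2 fold change of the other tested genes within 5 Mb, with a dashed line where both are equal. Lama5, Lama2 and Lama4 lie on the opposite side of 0 from their neighbours, and Lamb2 and Nid1 lie close to the line.

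Genes that work next to the members were read from 3 lists. Of 39 tested genes of the adhesion complex, the adaptors and kinases that gather at integrin tails, 27 passed, 11 higher and 16 lower (69.2%, against 60.9% of all tested genes), with a median log2 fold change of -0.32. With library totals only, which moved the calls of all genes toward lower as well, the split was 8 higher and 19 lower. By p the first were Tns4, a tensin gene, which fell from 20.5 ± 4.02 to 0.904 ± 0.314 CPM (adjusted p = 5.19e-07), Kank2, a talin-binding gene, 2.93-fold lower (adjusted p = 1.34e-06), its relative Kank1, which fell from 26.3 ± 4.19 to 0.842 ± 0.485 CPM (adjusted p = 2.06e-06), and Parvb, the beta-parvin gene, which rose from 5.34 ± 1.12 to 39.1 ± 8.96 CPM (adjusted p = 2.45e-06; SD, n = 3 each). Parvb and the alpha-parvin gene Parva, chosen after its values were seen, moved in opposite directions, Parva falling from 174 ± 7.97 to 85.8 ± 8.68 CPM (adjusted p = 1.64e-05).

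Of 32 basement membrane partners 23 were tested and 14 passed, 5 higher and 9 lower (60.9%), with a median of -0.26. Library totals alone, with the same move over all genes, gave 4 higher and 12 lower. Ntn1, a laminin-related guidance gene, rose from 39.8 ± 2.79 to 197 ± 11.8 CPM (adjusted p = 8.05e-08) and Agrn, the laminin-binding proteoglycan agrin, from 60.1 ± 5.51 to 261 ± 21.4 CPM (adjusted p = 2.14e-07). Tinagl1, a matrix gene of basement membranes, fell from 245 ± 41.7 to 49.2 ± 2.27 CPM (adjusted p = 3.91e-07) and Col7a1, the anchoring fibril collagen, from 25.2 ± 2.92 to 3.23 ± 0.594 CPM (adjusted p = 4.65e-07; SD, n = 3 each). Dag1, the laminin receptor dystroglycan and also chosen after its values were seen, was 2.97-fold lower (adjusted p = 1.08e-06). Among integrin ligands 27 of 34 genes were tested and 18 passed, 8 higher and 10 lower (66.7%), with a median of -0.081. The smallest p-values belonged to the tenascin gene Tnc (13.03-fold higher, adjusted p = 2.13e-08), its relative Tnxb (17.7-fold lower, adjusted p = 8.10e-08), the thrombospondin gene Thbs1 (8.21-fold lower, adjusted p = 4.90e-07) and the osteopontin gene Spp1 (5.83-fold higher, adjusted p = 2.12e-06).

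**Figure D5:**
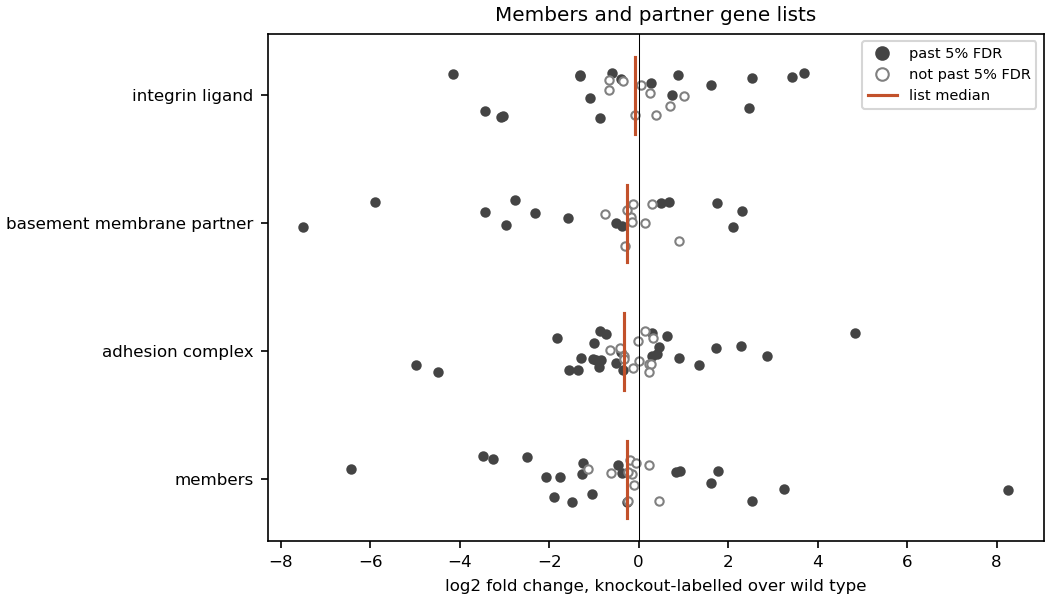
Log2 fold change of the tested genes among the members and the 3 partner lists, filled where they passed a 5% false discovery rate, with the list median as a vertical line. All 4 medians lie just below 0, between -0.32 and -0.081, while single genes reach well beyond 2 in either direction.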

How the data were processed

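The authors deposited raw counts, whole numbers per NCBI Gene ID for 6 libraries, per the file headers. Per the labels' protocols, Trizol RNA went into a stranded kit for total RNA. The submitters' processing notes name STAR 2.5.1b and mm10. How reads were counted, with which annotation and strand setting, is not given in the sources used here. Overlapping genes could therefore have exchanged reads. Besides Nid2, opposite-strand gene models cover 8.41% of the exon bases of Itgb4, 6.4% of Itga8 and 5.6% of Lamc3, and less of some other members. Every library column was matched to a sample by group and number. The members and lists were chosen with earlier results of these data known. Of these, 1 member, counted among the 39, is not reported here.

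All 15039 genes kept by filterByExpr were fitted in edgeR 4.0.16 (R 4.3.3) with TMM scaling and genotype as the only term, using the robust quasi-likelihood test, two-sided, with Benjamini-Hochberg adjustment over all of them at 5%. Standard errors come from that fit. Where a group had 0 counts, its sum was set to a floor of 3 counts for the ratio. That ratio is not a bound, and the lower limit of the exact 95% counting interval is given beside it. With 1 to 3 counts a ratio has both limits of that interval. These intervals cover counting error only. Per-library values are given for members of at least 10 CPM in a group or called with a 2-fold change, and up to 4 genes by p for each list. Lengths are merged exons of GENCODE M21, and positions and promoters are RefSeq GRCm38.p6, the assembly mm10 denotes. The members' promoter windows included none of Lama3, so their motif shares and those of all windows may not be drawn alike. Alternatives were DESeq2 1.42.0 size factors and test, library totals only, 2 other filters, the replicate number as a block, limma-voom (limma 3.58.1) and each library left out, and, chosen after seeing the data, both libraries numbered 3 left out. The edgeR step was tested on simulated data.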

Additional observations from a re-analysis of the deposited data

How the results depend on the processing

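Called members numbered 18 to 23 over the 14 alternatives (21 as reported), all genes called 8166 to 10203, adhesion complex genes 24 to 30, basement membrane partners 11 to 16 and integrin ligands 16 to 21. Each of these counts stayed within 1.5 times of the reported one. Of 430 pairs of a tested member and an alternative, 396 kept direction and side of the threshold, 17 lost the call, 9 gained one and 8 turned in sign. The sign turns all belonged to members not called. Leaving out 1 library, log2 fold changes ran from -0.50 to 0.028 for Itga2b, -0.38 to 0.20 for Itga6, -0.21 to 0.21 for Itgb7 and -0.31 to 0.023 for Lamb3, and with both libraries numbered 3 left out they were 0.21 for Itga6, 0.27 for Itgb7 and 0.078 for Lamb3. The cause was not tested. Library totals only moved the median log2 fold change of all genes from -0.040 to -0.16 and no member's call. Without the low-count filter, Itgb6 and Itgae passed as lower (adjusted p = 0.00372 and 0.0457), and Itgb6 also in the DESeq2 test (0.0119). Coding length in place of merged exons changed the shift in the Itgb8 share from -1.70 to -3.90 points, in the Lama5 share from -33.0 to -34.4 and in the Lama4 share from 23.1 to 24.5.

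Same-numbered deviations from the group means correlated at 0.0961, 0.0138 and 0.209 across genes, and differently numbered ones at -0.176 to 0.149. The value for the libraries numbered 3 was the highest of these. Whether the replicate numbers pair the libraries was not tested. With the replicate block 20 members and 9253 genes were called, and Itgb1 was the one member whose call changed. Depth limits what can be said of the 8 members not tested, which had 0 to 23 counts over a group.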
